A study of Rattus norvegicus with 12 samples.

Results

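The lysosomal cathepsins described here are 9 rat genes, Ctsb, Ctsc, Ctsd, Ctse, Ctsh, Ctsk, Ctsl, Ctss and Ctsz, out of 18335 genes named on the arrays. They were found by symbol: every probe that is not a control and whose gene name on the array, without its suffix for a predicted or mapped gene model, is one of these symbols was taken. This gave 11 probes, with 2 each for Ctsl and Ctss and 1 for each other gene. All 11 were well above background in the group's own RNA on all 12 arrays, none was saturated, and all passed the filter on dim probes.

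The data are 12 dual-colour Agilent microarrays of prostate RNA from male rats of 10 weeks, 3 arrays in each of 4 groups. Sham/vehicle rats had a sham operation and received the vehicle, 0.1% Tween 80, for 5 days. Sham/Eviprostat rats had the same operation and received Eviprostat, a plant-based preparation used for benign prostatic hyperplasia, given in 2 doses a day of 18 mg/kg, 36 mg/kg per day, for 5 days. Obstruction/vehicle and obstruction/Eviprostat rats had a rubber ring tied around the urethra next to the bladder, a partial outlet obstruction, and received vehicle or the same doses of Eviprostat for 5 days. Prostates were taken 2 h after the last dose. The comparisons ask what obstruction did to cathepsin mRNA in the prostate and how the levels stood when obstructed rats were treated.

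Several features of the design limit what a group stands for. Each group held 5 or 6 animals whose tissue was pooled for RNA, although the labels call the 3 arrays of a group biological replicates, so the p-values measure the spread between arrays and not between animals. The labels describe the dosing of sham rats as beginning 5 days after the operation and that of obstructed rats on the next day, so obstruction and time since surgery cannot be told apart. Per the labels, 1500 ng of sham/vehicle RNA went into labelling, against 300 ng from the remaining groups. In any comparison with sham/vehicle, the group and the amount labelled therefore cannot be told apart. Each array carried the group's RNA in Cy5 and sham/vehicle RNA in Cy3, without a dye swap, so a sham/vehicle array set that RNA against itself. The arrays lay on 3 slides with 1 array of each group per slide. Replicate number and slide are the same thing, and the scan day of slide 1 differed from that of the other slides.

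Lysosomal cathepsins are proteases made as inactive precursors, carried mainly to the acidic compartments of the cell by mannose 6-phosphate receptors and activated there by cleavage. Most of the members are cysteine proteases of the papain family, which cystatins inhibit. Ctsd and Ctse are aspartic proteases. Together they digest proteins taken up or recycled by the cell, and some act outside it or on antigens and collagen, and macrophages are rich in several of them.

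The measurement given below for an array is the log2 ratio of Cy5 to Cy3 after background correction and loess normalization within the array, that is, the group's RNA over sham/vehicle RNA. A difference between groups is a difference of such ratios from 1 limma fit over all 12 arrays, given with its standard error, and it is called where the p-value adjusted by Benjamini-Hochberg over 36098 probes is under 0.05. A gene is read from its brightest probe. In bulk RNA of this kind, more cells of a type and more RNA per cell cannot be told apart. From 70.9% to 88.4% of spots on an array were well above background in Cy5. Of 12 prostate epithelial markers, 11 were well above background on every array and Acp3 only on the 3 obstruction/vehicle arrays.

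The only Ctsz probe and the dimmer probes of Ctsl and Ctss are printed here, since the results below turn on the uneven Ctsz values and on how the paired probes of Ctsl and Ctss compare. Each is 60 bases long and has at least 1 reading frame without a stop codon, and no base is marked with a capital.
Ctsl, dimmer probe: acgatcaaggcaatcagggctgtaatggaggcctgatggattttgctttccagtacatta
Ctss, dimmer probe: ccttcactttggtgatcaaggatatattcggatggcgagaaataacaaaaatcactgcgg
Ctsz, only probe: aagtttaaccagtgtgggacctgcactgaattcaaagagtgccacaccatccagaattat
Per the array design, on rat build rn3, the Ctsl probe lies at chr17:6290718-6290777 on the plus strand, and the brighter Ctsl probe lies downstream of it at chr17:6293891-6293950. The Ctss probe lies at chr2:190429228-190429287, also on the plus strand, and the brighter Ctss probe follows at chr2:190429437-190429496. The design gives no position for the Ctsz probe. Among the members with 1 probe, the design places Ctsb at chr15:42439313-42439372, Ctsk at chr2:190368355-190368414, Ctse at chr13:44619093-44619152 and Ctsc at chr1:144739441-144739500, all on the plus strand, and Ctsd at chr1:202779385-202779443 on the minus strand. An exon annotation of that build was not used here.

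Under obstruction and vehicle 7 of the 9 cathepsins rose and none fell, relative to sham/vehicle. Of all probes, 7.16% were called higher and 4.45% lower in this comparison, and the median difference was 1.25 over the cathepsins against -0.01 over all probes. The members that rose were 6 cysteine cathepsins (Ctsb, Ctss, Ctsz, Ctsc, Ctsk and Ctsl) and the aspartic protease Ctse, with differences from 0.67 to 2.78 on the log2 scale. The cysteine cathepsin Ctsh and the aspartic protease Ctsd did not pass the test. In 7 of 9 the arrays of the groups did not overlap, which held for 24.7% of all probes.

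**Figure D1:**
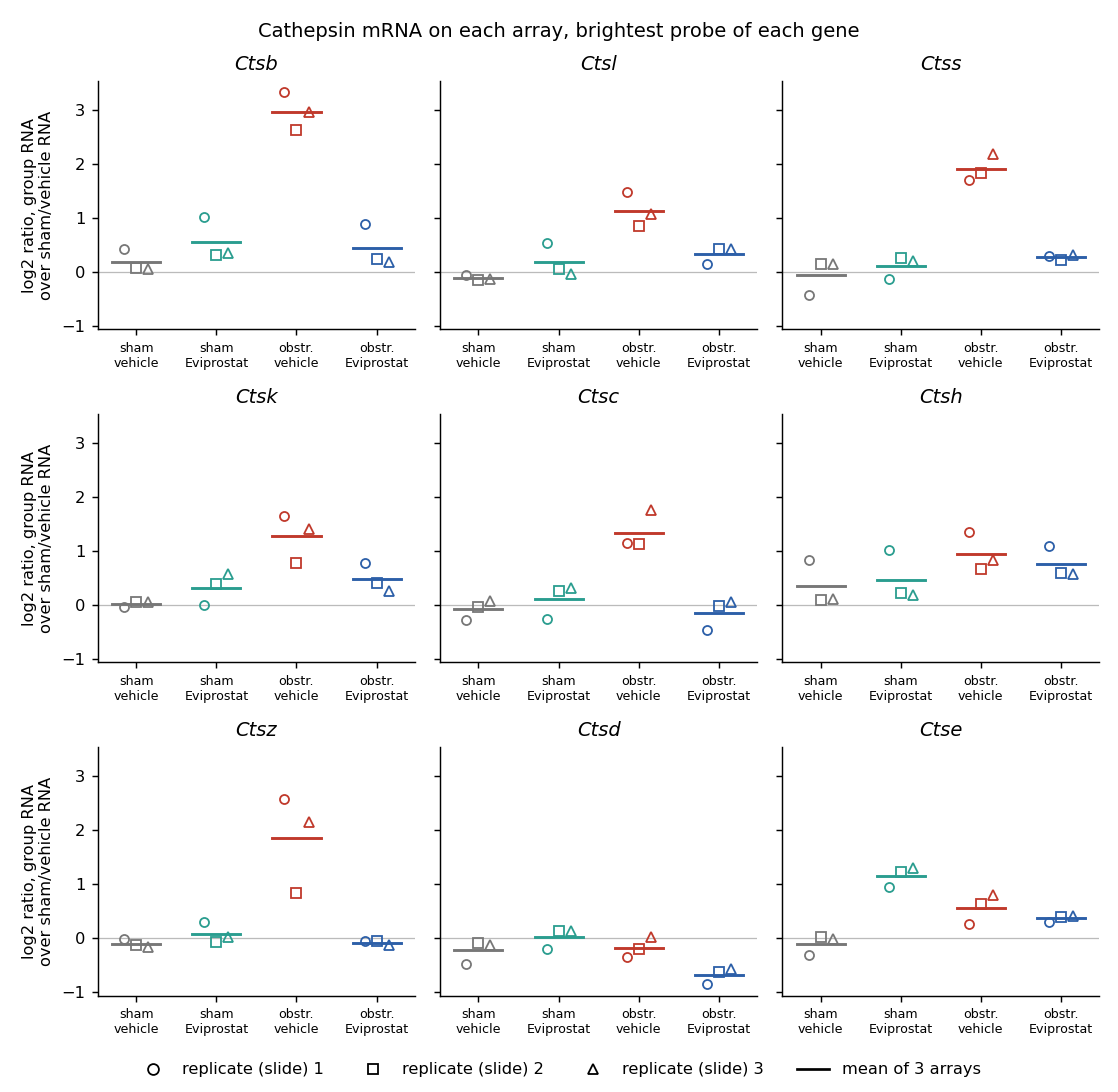
Log2 ratio of the group's RNA to sham/vehicle RNA for each of the 9 cathepsins (brightest probe) on each of the 12 arrays, by group; symbols give the replicate, which is also the slide, and bars the mean of 3 arrays. Ctsb, Ctsl, Ctss, Ctsc and Ctsz stand apart in obstruction/vehicle, Ctsd is lowest in obstruction/Eviprostat, and Ctse is highest in sham/Eviprostat.

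Ctsb, a cysteine protease that can cut both within and from the end of a protein, moved most. Its log2 ratio was 0.42, 0.08 and 0.05 on the sham/vehicle arrays, 1.01, 0.31 and 0.36 on sham/Eviprostat, 3.32, 2.62 and 2.95 on obstruction/vehicle, and 0.89, 0.25 and 0.18 on obstruction/Eviprostat. The obstruction/vehicle arrays were far above the other 9 arrays, while the other 3 groups overlapped. On slide 1 the ratio was highest in every group, including the array on which both dyes carried the same RNA. Ctsb rose under obstruction and vehicle by 2.78 ± 0.24 on the log2 scale, 6.87-fold (limma, adjusted p = 1.19e-05), and the difference was 2.90, 2.53 and 2.91 within slides 1, 2 and 3.

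Ctss, an elastin-cutting protease of antigen-presenting cells that trims the class II invariant chain, had log2 ratios of -0.42, 0.14 and 0.14 on sham/vehicle, -0.13, 0.26 and 0.20 on sham/Eviprostat, 1.70, 1.83 and 2.19 on obstruction/vehicle, and 0.29, 0.23 and 0.32 on obstruction/Eviprostat. The 3 obstruction/vehicle arrays stood alone. The rise was 1.95 ± 0.17 on the log2 scale, 3.87-fold (adjusted p = 1.19e-05). The dimmer Ctss probe, whose sequence is given above, read a rise of 1.69 ± 0.13 (adjusted p = 5.62e-06).

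Ctsz, a carboxypeptidase that removes single residues from the end of proteins and is abundant in myeloid cells, was the least even. Its log2 ratio was -0.01, -0.13 and -0.17 on sham/vehicle, 0.30, -0.07 and 0.03 on sham/Eviprostat, and -0.06, -0.06 and -0.13 on obstruction/Eviprostat. On obstruction/vehicle it was 2.57, 0.83 and 2.15, so that replicate 2 was far below the other 2 arrays of its group and still above the other 9 arrays. The rise was 1.95 ± 0.32 (adjusted p = 0.00176), and it was 2.58, 0.96 and 2.32 within slides 1, 2 and 3. Without obstruction/vehicle replicate 2, Ctsz rose by 2.46.

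Ctsk, a collagen-cutting protease best known from osteoclasts and also made by fibroblasts, showed the same low array. Its log2 ratio was -0.04, 0.05 and 0.06 on sham/vehicle, 0.01, 0.39 and 0.57 on sham/Eviprostat, 1.65, 0.78 and 1.40 on obstruction/vehicle, and 0.78, 0.41 and 0.26 on obstruction/Eviprostat. Obstruction/vehicle replicate 2 was level with the highest obstruction/Eviprostat array, so these groups touched. Ctsk rose by 1.25 ± 0.21 under obstruction and vehicle (adjusted p = 0.00221).

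Ctsc, the dipeptidyl peptidase that activates the granule serine proteases of neutrophils and cytotoxic cells, had log2 ratios of -0.27, -0.04 and 0.08 on sham/vehicle, -0.25, 0.26 and 0.32 on sham/Eviprostat, 1.14, 1.13 and 1.75 on obstruction/vehicle, and -0.45, -0.02 and 0.05 on obstruction/Eviprostat. The last group was level with sham/vehicle and the obstruction/vehicle arrays lay above all others. Ctsc rose by 1.42 ± 0.20 (adjusted p = 0.000745), but the call was lost under median centring of the arrays (1.52, adjusted p = 0.0755).

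Ctsl, a broadly made endopeptidase, had log2 ratios on its brighter probe of -0.05, -0.14 and -0.13 on sham/vehicle, 0.54, 0.06 and -0.03 on sham/Eviprostat, 1.48, 0.85 and 1.08 on obstruction/vehicle, and 0.15, 0.43 and 0.43 on obstruction/Eviprostat. The rise under obstruction and vehicle was 1.24 ± 0.17 (adjusted p = 0.000526). On the dimmer probe it was 0.98 ± 0.11 (adjusted p = 0.000111). Both probes of Ctsl put obstruction/vehicle above the other groups, and they differed in how far obstruction/Eviprostat stood above sham, as described below.

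Ctsh, an aminopeptidase with a role in surfactant protein processing, differed from these 6. Its log2 ratio was 0.84, 0.09 and 0.12 on sham/vehicle, 1.01, 0.22 and 0.19 on sham/Eviprostat, 1.36, 0.66 and 0.84 on obstruction/vehicle, and 1.1, 0.60 and 0.57 on obstruction/Eviprostat. Slide 1 was the highest in every group, and the groups overlapped. The difference under obstruction and vehicle was 0.60 ± 0.27 (adjusted p = 0.198), with 0.52, 0.56 and 0.72 within the slides. With the replicate number, that is the slide, as a block, Ctsh passed the test at the same difference (adjusted p = 0.00024), which brings the count of members called higher to 8. The block raised the calls over all probes as well, to 13.3% higher and 11.9% lower.

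The aspartic proteases went separate ways. Ctsd, the main aspartic protease of the lysosome, had log2 ratios of -0.47, -0.08 and -0.13 on sham/vehicle, -0.20, 0.14 and 0.14 on sham/Eviprostat, -0.35, -0.20 and 0.03 on obstruction/vehicle, and -0.85, -0.62 and -0.57 on obstruction/Eviprostat. The first 3 groups overlapped and the treated obstructed rats lay below all of them. The difference under obstruction and vehicle was 0.06 ± 0.14, with a 95% interval from -0.26 to 0.37 (adjusted p = 0.864). Its upper end lies below the lower end of the interval of each of the 6 cysteine cathepsins that rose, the lowest of which was 0.79 for Ctsk. Ctse, an aspartic protease kept mostly in endosomes of epithelial and immune cells, had log2 ratios of -0.31, 0.03 and -0.02 on sham/vehicle, 0.94, 1.23 and 1.30 on sham/Eviprostat, 0.27, 0.64 and 0.79 on obstruction/vehicle, and 0.30, 0.40 and 0.41 on obstruction/Eviprostat. Sham/Eviprostat was highest and sham/vehicle lowest, with no overlap of either with another group. Ctse rose by 0.67 ± 0.14 under obstruction and vehicle (adjusted p = 0.00968). This call was lost without background subtraction (0.57, adjusted p = 0.0505), under median centring (0.75, adjusted p = 0.573) and in a fit of only the 6 arrays compared (adjusted p = 0.056).

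**Figure D2:**
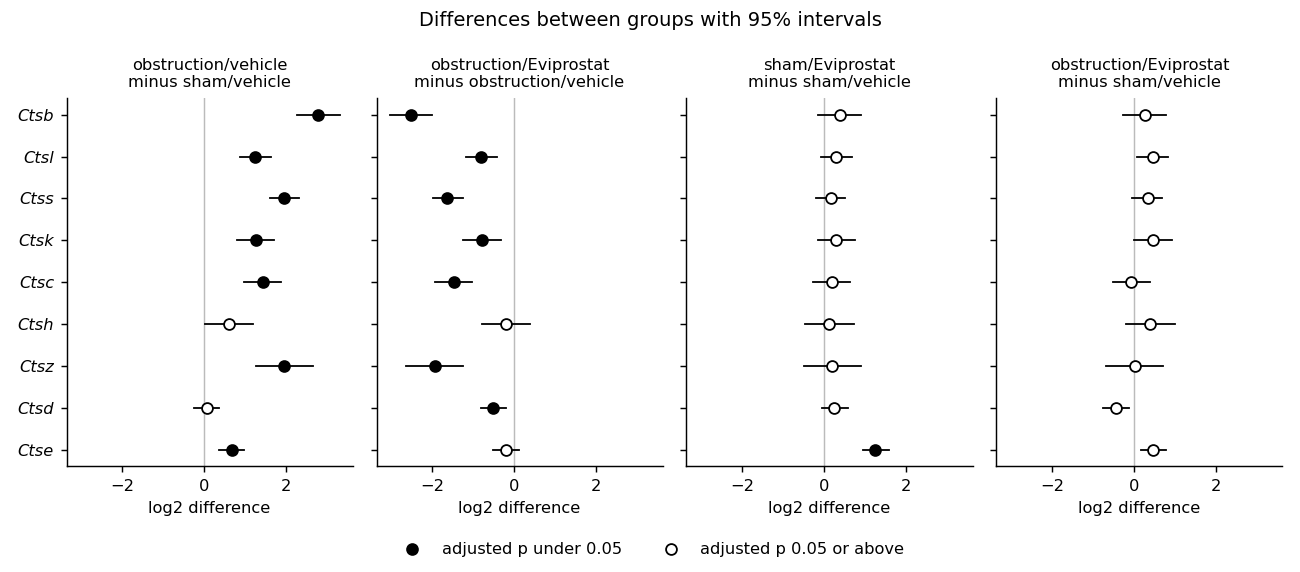
Log2 difference of each cathepsin (brightest probe) in 4 comparisons, with 95% intervals from the fit over 12 arrays; filled points have an adjusted p under 0.05. Filled points lie to the right in 7 genes for obstruction under vehicle and to the left in 7 genes for Eviprostat in obstructed rats, Ctse alone is filled for Eviprostat in sham rats, and no point is filled for treated obstruction against untreated sham.

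In obstructed rats given Eviprostat 7 of the 9 cathepsins fell and none rose, relative to obstruction/vehicle, where 5.89% of all probes were called lower and 3.9% higher. This comparison shares the obstruction/vehicle arrays with the previous one, so a high value there lowers the difference here. The largest falls were those of Ctsb (-2.52 ± 0.24, adjusted p = 3.41e-05), Ctsz (-1.93 ± 0.32, adjusted p = 0.00222), Ctss (-1.63 ± 0.17, adjusted p = 6.85e-05) and Ctsc (-1.48 ± 0.20, adjusted p = 0.000621). Ctsl fell by 0.80, Ctsk fell by 0.79 and Ctsd fell by 0.51 with adjusted p-values of 0.0115, 0.0349 and 0.0467. Ctse (-0.20 ± 0.14, adjusted p = 0.477) and Ctsh (-0.20 ± 0.27, adjusted p = 0.737) did not pass. The median over the members was -0.80, against 0.01 over all probes, and in 6 of 9 the arrays did not overlap, as in 24.3% of all probes.

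The smaller of these falls were near the threshold. The call of Ctsd was lost on leaving out any of 5 of the 6 arrays compared, all but obstruction/vehicle replicate 1, with adjusted p-values from 0.0535 to 0.184. The call of Ctsk was lost without obstruction/vehicle replicate 1 or 3 or obstruction/Eviprostat replicate 2 or 3 (0.122 to 0.149), and that of Ctsl without obstruction/Eviprostat replicate 1 (0.0502). Under median centring of the arrays only Ctsb and Ctsz stayed under the threshold, while the differences of Ctss (-1.75, adjusted p = 0.0517) and Ctsc (-1.61, adjusted p = 0.0721) were no smaller. The dimmer Ctsl probe gave -0.31 ± 0.11 and missed the threshold (adjusted p = 0.111), passing with the slide as a block (adjusted p = 0.0166).

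**Figure D3:**
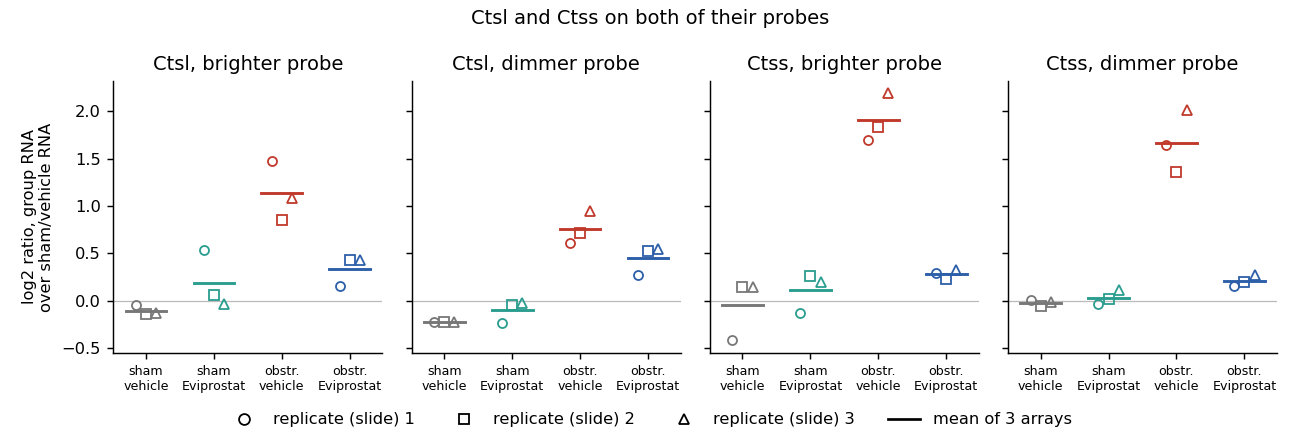
Log2 ratio of Ctsl and Ctss on both of their probes on each of the 12 arrays, by group; symbols give the replicate (slide) and bars the mean of 3 arrays. Both probes of Ctss fall back to well below obstruction/vehicle in obstruction/Eviprostat. The dimmer Ctss probe (0.15 to 0.27) and the dimmer Ctsl probe (0.27 to 0.55) both stay above their sham arrays there.

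In treated obstructed rats set against untreated sham rats, none of the 9 cathepsins was called by limma, where 0.175% of all probes were higher and 0.119% lower. At an unadjusted p under 0.05 there were 3, namely Ctse (0.47 ± 0.14) and Ctsl (0.45 ± 0.17) on the higher side and Ctsd (-0.45 ± 0.14) on the lower. In 5 of 9 members the arrays of these groups did not overlap, against 17.2% of all probes. The median over the members was 0.33, against 0 over all probes. The differences of the members ran from -0.45 to 0.47. Ctsb, which stood 2.78 higher without treatment, differed by 0.26 with a 95% interval from -0.26 to 0.78. For Ctsz the interval was -0.68 to 0.71, which leaves room for a difference in either direction. With the slide as a block, where 1.48% of all probes were called higher and 1% lower, 3 members passed: Ctse (adjusted p = 0.0119) and Ctsh (0.40, adjusted p = 0.0256) higher and Ctsd lower (adjusted p = 0.00927). The dimmer Ctsl probe, at -0.22, -0.23 and -0.22 on sham/vehicle and 0.27, 0.52 and 0.55 on obstruction/Eviprostat, was called higher by 0.67 ± 0.11 (adjusted p = 0.0274), so the probes of Ctsl give different calls here.

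In sham rats given Eviprostat 1 cathepsin, Ctse, rose and none fell, where 0.87% of all probes were called higher and 0.659% lower. Ctse rose by 1.25 ± 0.14, 2.39-fold (adjusted p = 0.000827), by 1.25, 1.20 and 1.32 within slides 1, 2 and 3, although the call was lost under median centring (1.29, adjusted p = 0.642). The other 8 members differed by 0.13 to 0.38 and none passed. With the slide as a block Ctsb also passed (0.38, adjusted p = 0.0403), which makes 2, where 3.21% of all probes were called higher and 3.11% lower. The arrays of these groups did not overlap for 2 of 9 members, as in 19% of all probes.

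Among the Eviprostat-treated rats, Ctse fell by 0.78 (adjusted p = 0.013) and Ctsd fell by 0.70 (adjusted p = 0.0248) with obstruction and none rose, where 1.31% of all probes were called lower and 0.97% higher. Both calls were lost on leaving out any of 5 of the 6 arrays compared, the exception being sham/Eviprostat replicate 1, with adjusted p-values of 0.0528 and above. The other 7 differed by -0.26 to 0.28. The dimmer Ctsl probe was called higher (0.55 ± 0.11, adjusted p = 0.0218) while the brighter was not (0.15 ± 0.17, adjusted p = 0.82).

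The effect of Eviprostat in obstructed rats differed from that in sham rats for 8 of the 9 members, each time towards lower in obstructed rats, where 4.89% of all probes were called lower and 3.78% higher on this interaction term. The terms were -2.90 ± 0.34 for Ctsb (adjusted p = 0.000226), -2.12 ± 0.45 for Ctsz (adjusted p = 0.0125), -1.78 ± 0.24 for Ctss (adjusted p = 0.000645) and -1.67 ± 0.29 for Ctsc (adjusted p = 0.00372). For Ctse the term was -1.45 ± 0.20 (adjusted p = 0.000871), with a difference of 1.25 in sham rats and -0.20 in obstructed rats. Ctsk (-1.09, adjusted p = 0.0427), Ctsl (-1.09, adjusted p = 0.0162) and Ctsd (-0.76, adjusted p = 0.0396) were nearer the threshold, and the calls of Ctsk and Ctsd were each lost on leaving out any of 9 of the 12 arrays. Ctsh (-0.32 ± 0.38, adjusted p = 0.7) and the dimmer Ctsl probe (-0.43 ± 0.16, adjusted p = 0.122) did not pass. Under median centring only Ctsb and Ctsz passed.

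The order of the 4 groups was not the same in all members. Obstruction/vehicle was the highest group in 7 genes, namely the cysteine cathepsins including Ctsh, and did not overlap with the next group in Ctsb, Ctsc, Ctsl, Ctss and Ctsz. It touched the next group in Ctsk and Ctsh. Below it the remaining 3 groups overlapped with their neighbours in these genes, except that sham/vehicle lay below sham/Eviprostat in Ctsl without overlap. Sham/Eviprostat was the highest group in Ctsd, where it overlapped with obstruction/vehicle, and in Ctse, where it did not.

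Over the 12 arrays the log2 ratios of Ctsb, Ctsc, Ctsk, Ctsl, Ctss and Ctsz varied together, with Pearson r from 0.75 (Ctsc with Ctsl) to 0.94. This is a description of arrays that share groups and slides. Ctsd and Ctse had r of 0.55 with each other, and neither exceeded 0.44 with any of the 6. Named genes outside the family were ranked by r, leaving out symbols that begin with LOC or RGD and probes with a missing value. Among those ranked, the 3 most like Ctsb over the 12 arrays were Ero1a (r = 0.993), Lgmn (0.991) and G0s2 (0.989). Those most like Ctss were Bmp1 (0.995), Cyba (0.994) and Rap1b (0.993), and those most like Ctsz were Lbp (0.996), Batf (0.993) and Itgam (0.993). Ctsc was nearest to Abcg1 (0.989), Cdkn2d and Pnp (both 0.984). Ctsk was nearest to Dbn1 (0.977), Metrn (0.959) and C1r (0.948), and Ctsl to Gpx8 (0.981), Oaf (0.976) and Anxa2 (0.969). Ctse had other neighbours, Fez1 (0.977), Itm2c (0.973) and Cars1 (0.953).

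A list of other cathepsins and relatives was read as well. Its counts, and those of the lists that follow, are to be read against the shares of all probes. Under obstruction and vehicle these were 7.16% higher and 4.45% lower. With Eviprostat in obstructed rats they were 5.89% lower and 3.9% higher. Of 10 measured, 3 rose under obstruction and vehicle, with a median of 0.08. That median was 0.22 under median centring and 0.37 with the scanner software's ratio. The list also holds Cts7, Ctsg, Ctsj, Ctsm, Ctsq and Ctsw, so its median is not that of lysosomal proteases alone. Cts7, Ctsg, Ctsm and Ctsw were not well above background on every array. Napsa, an aspartic protease, rose by 3.31 ± 0.20 (adjusted p = 5.92e-07). Lgmn, the asparaginyl endopeptidase that processes several cathepsins, rose by 2.60 ± 0.25 (adjusted p = 3.31e-05), and Ctsf rose by 0.59 (adjusted p = 0.00519). Ctsa, a protective carboxypeptidase, did not pass (0.45, adjusted p = 0.114). In obstructed rats given Eviprostat 4 of the 10 fell, with Napsa at -3.04, Lgmn at -2.14, Ctsa at -0.66 and Ctsf at -0.43.

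Genes of the cystatin superfamily, which includes inhibitors of cysteine cathepsins, were higher in 8 of 15 measured genes under obstruction and vehicle. In 1 they were lower, and the median was 0.69. The list also holds Ahsg, Fetub, Cst8, Cst11 and Cst12, so its counts are not counts of cathepsin inhibitors alone. Cst8 was among the genes called higher. Kng2 (2.92 ± 0.35) and Kng1 (2.87 ± 0.39), kininogens whose near-identical copies the probes may not separate, rose most. Cst7, a cystatin of immune cells, rose by 1.51 and Cstb, an intracellular inhibitor, by 0.69 (adjusted p = 0.0035). Cst6 was the gene that fell, by 1.16 (-1.16 ± 0.09, adjusted p = 5.82e-06). Cst3, the main secreted inhibitor, differed by 0.78 and did not pass (adjusted p = 0.0883). With Eviprostat 9 of 15 fell and Cst6 rose by 0.98, Cst3 being lower by 1.23 (-1.23 ± 0.27, adjusted p = 0.013).

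**Figure D4:**
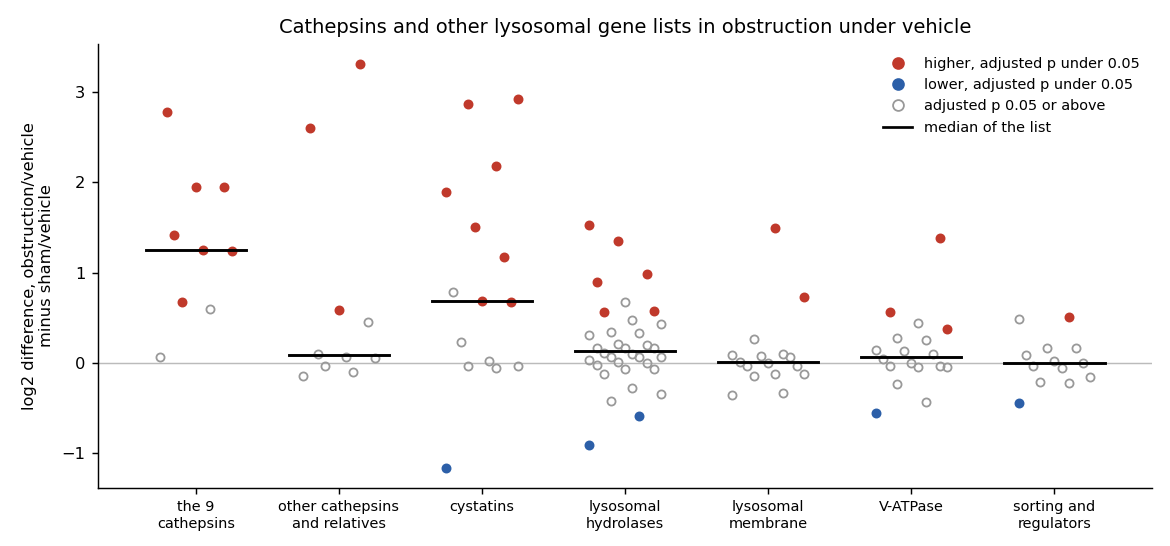
Log2 difference between obstruction/vehicle and sham/vehicle for the 9 cathepsins and for the genes of 6 related lists, not all of them lysosomal genes. Each point is a gene, filled where the adjusted p is under 0.05, and bars give the median of the list. The median is 1.25 for the cathepsins and 0.69 for cystatins, and between 0 and 0.13 for the other 5 lists, although that of other cathepsins and relatives was 0.37 with the scanner software's ratio.

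Of 34 other hydrolases 6 were higher and 2 lower under obstruction and vehicle, with a median of 0.13. The counts of this paragraph are to be read against 7.16% of all probes higher and 4.45% lower. Those of lower hydrolases and lower V-ATPase genes are near that share. Scpep1, a carboxypeptidase, rose by 1.53, Lipa, the acid lipase, by 1.35 and Dnase2, the acid nuclease, by 0.98, whereas Glb1, the lysosomal galactosidase, fell by 0.91 (-0.91, adjusted p = 0.000139). Among 16 membrane proteins 2 were higher and none lower, with a median of 0. The 2 were Cd63 (1.49) and Scarb2 (0.73), while Npc1 (0.27, adjusted p = 0.0783) and Laptm4b (-0.36, adjusted p = 0.0822) did not pass. Lamp1, a major protein of the lysosomal membrane, did not pass either, at 0.09 ± 0.13 (adjusted p = 0.742). With the scanner software's ratio 4 membrane proteins were higher and 4 lower, but that ratio called 40.1% of all probes in this comparison. Of 18 subunits and accessory proteins of the V-ATPase, the proton pump, 3 were higher and 1 lower, with a median of 0.07. Tcirg1, a pump subunit of osteoclasts and macrophages, rose by 1.38, Atp6v1c1 by 0.56 and Atp6v0b by 0.37, and Atp6v0d1 was at -0.55 (adjusted p = 0.025).

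Among 13 sorting genes and regulators 1 was higher and 1 lower under obstruction and vehicle, with a median of 0. Of all probes, 7.16% were called higher and 4.45% lower there. Each count is 1 gene and near these shares, so it is not read as a result about the list. Tfeb, a transcription factor for lysosomal genes, rose by 0.51 ± 0.11 (adjusted p = 0.00859), and Igf2r, a mannose 6-phosphate receptor, fell by 0.45 (-0.45, adjusted p = 0.02). Gga2 (0.49, adjusted p = 0.127) and Tfe3 (-0.22, adjusted p = 0.228) did not pass. In obstructed rats given Eviprostat, 6 of 34 hydrolases were called lower and 1 higher. Lower calls were 2 of 16 membrane proteins, 2 of 18 V-ATPase genes and 1 of 13 sorting genes, with 0 higher. The sorting gene was Tfeb (-0.52, limma, adjusted p = 0.00928). Of all probes, 5.89% were called lower and 3.9% higher in this comparison. The sorting count and the count of higher hydrolases are near these shares. Those of membrane and V-ATPase genes rest on 2 genes each. With the slide as a block there were 11 higher and 4 lower hydrolases, 3 higher and 2 lower membrane proteins, and 5 higher and 3 lower V-ATPase genes under obstruction and vehicle. These are to be read against the 13.3% higher and 11.9% lower of all probes with that block, and the lower counts are near that share for hydrolases and membrane proteins. With Eviprostat in obstructed rats the block gave 12.1% of all probes lower and 11.4% higher, and 13 lower and 2 higher hydrolases, 3 and 3 V-ATPase genes, 2 and 2 membrane proteins, and 2 lower and 1 higher sorting genes. No called gene of these lists changed sign under median centring, the scanner software's ratio or Cy5 alone.

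Many markers of other cell types were also higher under obstruction and vehicle. Of 22 macrophage markers 18 were higher and none lower under obstruction and vehicle, with a median of 1.56. The smallest p-values were those of Lyz2 (2.68), Tyrobp (2.68), Fcgr2a (4.26) and Cd14 (1.73), and Cd68, itself a lysosomal protein, was higher by 1.94. With Eviprostat in obstructed rats 16 of 22 fell, Cd68 by 1.72 (-1.72, adjusted p = 1.66e-05). The median log2 ratio of the list lay between -0.03 and 0.03 on the sham arrays, at 1.55, 0.87 and 1.78 on the obstruction/vehicle arrays and between 0.15 and 0.26 on obstruction/Eviprostat. For the 9 cathepsins the same median was -0.05 to 0.05 on sham/vehicle. On sham/Eviprostat it was 0.20 to 0.30, where the macrophage list was at 0.01 to 0.02. The cathepsin median was 1.48, 0.83 and 1.40 on obstruction/vehicle and 0.25 to 0.29 on obstruction/Eviprostat. Obstruction/vehicle replicate 2 was the lowest of its group in both lists. The log2 of the summed Cy5 level of the macrophage list ran from 14.47 to 14.56 on sham/vehicle, 14.42 to 14.51 on sham/Eviprostat, 17.68 to 18.04 on obstruction/vehicle and 14.92 to 15.03 on obstruction/Eviprostat. None of the 22 was below background on all arrays of a group, and their part in the cathepsin differences was not tested.

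**Figure D5:**
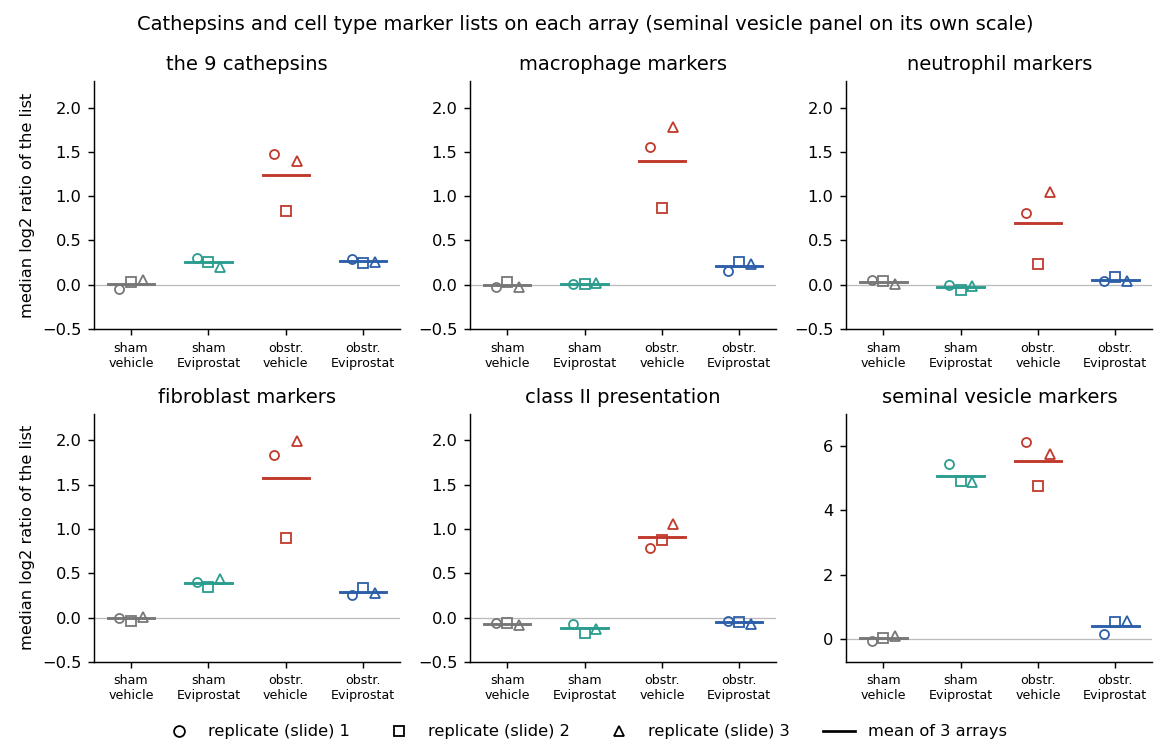
Median log2 ratio of the 9 cathepsins and of 5 marker lists on each of the 12 arrays, by group; symbols give the replicate (slide) and bars the mean of 3 arrays. The cathepsins and the macrophage, neutrophil and fibroblast lists are highest in obstruction/vehicle with replicate 2 lowest among its 3 arrays, and the seminal vesicle list, on its own scale, is high in both sham/Eviprostat and obstruction/vehicle.

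Of 12 neutrophil markers 7 were higher and none lower, with a median of 0.66. S100a9 rose by 5.58 and Ncf1 by 2.15. S100a8, which no sham/vehicle array measured well above background, was at least 259-fold higher (adjusted p = 4.19e-07), and Mmp8, likewise, at least 8.26-fold higher (adjusted p = 0.00304). These bounds set the mean Cy5 level of obstruction/vehicle against the lowest levels measured well above background. Mmp8 and S100a8 were below background on every sham and every obstruction/Eviprostat array. The log2 of the summed Cy5 level of this list ran from 11.23 to 11.36 on sham/vehicle, 11.22 to 11.27 on sham/Eviprostat, 15.72 to 15.95 on obstruction/vehicle and 11.27 to 11.41 on obstruction/Eviprostat. Of 12 fibroblast markers 9 were higher and none lower, with a median of 1.56 and the smallest p-values in Vim (2.36), Col1a2 (2.06), Col1a1 (3.07) and Col3a1 (2.63), and their summed level ran from 14.60 to 14.67, 15.18 to 15.30, 16.93 to 17.11 and 14.97 to 15.16 in the same order of groups. Of 9 class II presentation genes, with which Ctss works, 5 were higher and none lower, with a median of 1.00 and the smallest p-values in Cd74 (1.22 ± 0.09), RT1-Da (1.26), RT1-Db1 (1.00) and RT1-Bb (1.22), and their summed level ran from 13.35 to 13.53, 13.17 to 13.47, 14.55 to 14.70 and 13.27 to 13.52. The part of these cell types was not tested either. Obstruction/vehicle replicate 2 was also left out of the list counts, an alternative chosen after seeing the data. It was the lowest array of its group in the macrophage, neutrophil and fibroblast lists, so their differences were bound to be larger without it. The counts were then 20 of 22 macrophage, 7 of 12 neutrophil, 12 of 12 fibroblast and 6 of 9 class II genes, all higher. The share of all probes called was not counted there, so nothing is read from these counts.

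Markers of neighbouring tissues also differed between groups. All 7 seminal vesicle markers were higher in obstruction/vehicle than in sham/vehicle, as in Svs3a (6.24), Svs4 (4.78), Svs5 (7.77) and Svs6 (6.78), and all 7 were also higher in sham/Eviprostat. Svs7 was below background on all sham/vehicle arrays, and the median under obstruction and vehicle was 5.78 as fitted and 6.24 with Svs7 at its lower bound. The summed level of that list ran from 17.78 to 18.07 on sham/vehicle, 19.26 to 20.13 on sham/Eviprostat, 20.24 to 21.24 on obstruction/vehicle and 17.76 to 17.94 on obstruction/Eviprostat. The groups where Ctse was called above sham/vehicle in the main fit are those where this list was high. In obstruction/Eviprostat, where the list was low, Ctse was also above sham/vehicle by 0.47. That difference was called only in some settings, such as with the slide as a block (limma, adjusted p = 0.0119). Ctse was higher in sham/Eviprostat than in obstruction/vehicle, whereas the summed level of the list was lower in sham/Eviprostat. By the median log2 ratio of the list these groups overlapped. It ran from 4.88 to 5.44 in sham/Eviprostat and from 4.75 to 6.13 in obstruction/vehicle. The part of the list in the Ctse result was not tested. Of 10 skeletal muscle markers 8 were lower under obstruction and vehicle, with a median of -1.65, as in Myl11 (-2.06), Eno3 (-2.10), Ckm (-1.62) and Tnni2 (-1.58), and 8 were higher in sham/Eviprostat than in sham/vehicle, with a median of 1.29. Their summed level ran from 16.32 to 16.59, 17.60 to 17.85, 14.90 to 15.09 and 15.49 to 15.62 in the same order. Of the 12 prostate epithelial markers 4 were lower and 1 higher under obstruction and vehicle, with a median of -0.26, among them Pbsn (-1.37), Foxa1 (-0.99) and, higher, Sbp (2.77), and their summed level ran from 18.25 to 18.54, 18.57 to 18.67, 17.13 to 18.05 and 18.54 to 18.69.

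The 250 bases before the start site were read for the 8 members with a promoter entry from RefSeq, on build GRCr8. Those of Ctss, one of the members that rose most, and Ctsd, the one nearest to no difference under obstruction, are shown to set the windows of members that moved differently side by side. In Ctss the capitals mark GAAANNGAA, an interferon-type motif, and GAGGAA, an ETS-type motif, and in Ctsd CACGTG, the core of the E-box family to which Tfeb binds; N stands for any base and both strands were searched.
Ctss: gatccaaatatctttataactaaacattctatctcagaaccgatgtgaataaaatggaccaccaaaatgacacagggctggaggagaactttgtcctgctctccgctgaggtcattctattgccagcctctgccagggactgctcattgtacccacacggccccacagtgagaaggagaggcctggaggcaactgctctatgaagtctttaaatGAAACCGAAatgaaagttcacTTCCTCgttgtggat
Ctsd: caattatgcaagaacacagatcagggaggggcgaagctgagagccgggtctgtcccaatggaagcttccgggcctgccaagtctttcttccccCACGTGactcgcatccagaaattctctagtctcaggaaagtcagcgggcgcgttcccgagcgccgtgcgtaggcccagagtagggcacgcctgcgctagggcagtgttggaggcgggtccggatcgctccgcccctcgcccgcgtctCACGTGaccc
The Ctss window is chr2:185775146-185775395 on the plus strand and the Ctsd window chr1:206968822-206969071 on the minus strand. In Ctss the interferon-type match begins 36 bases and the ETS-type match 15 bases before the start. Ctsd has 2 matches of CACGTG, beginning 157 and 10 bases before the start, and was the only one of the 8 members with this motif, which occurs in 5.59% of all 33469 promoter windows of this length and at least 2 times in 0.43%. The interferon-type motif was found in 2 of the 8, Ctss and Ctsk, against 8.12% of all windows. The ETS-type motif was found in 6 of the 8, namely Ctsc, Ctse, Ctsh, Ctsk, Ctss and Ctsz, against 23.3% of all windows. GGGCGG, the GC box, was found in Ctsc, Ctsd, Ctsl and Ctsz, against 30.5%, and TGANTCA, the AP-1 motif, in none, against 6.34%. A match describes these letters only and not a binding site.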

How the data were processed

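Prostate RNA of 4 groups was measured on 12 dual-colour arrays. Per the file headers, the deposited intensity values of both channels came from Agilent Feature Extraction 9.5.1.1, and the deposited log10 ratios and flags are that software's. The authors' value table held the same log10 ratios, with a largest difference of 0, so its scale and direction are those of Cy5 over Cy3, with no further centring. The depth of an array cannot be given as counts, and 3 arrays a group limit the precision.

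Spot and local background intensities were corrected by normexp with an offset of 50 and normalized by loess within arrays in limma 3.58.1 (R 4.3.3). Control spots were left out, and 36098 of 41012 probes with Cy5 well above background on at least 3 of 12 arrays were kept. A linear model of 4 group means, leaving 8 residual degrees of freedom, was fitted to all arrays with eBayes, with Benjamini-Hochberg adjustment over all kept probes. The fit and the calls were tested on simulated log ratios with independent noise and no slide effect. The steps before the fit were not tested in this way. Array names were updated through RefSeq: 10861 probes were matched by accession, 5536 by symbol and 3703 by synonym, 3307 kept the array's name and 17605 had none. The brightest probe stood for a gene. All 9 members were named, with the 4 genes of smallest p from each list in obstruction under vehicle, Lgmn, Cst3, Cstb, Cd68, Cd74, Lamp1 and Tfeb, and, for members whose group means ranged over at least 1 log2 unit (not Ctsd or Ctsh), the 3 genes of highest r. Other genes named were chosen after their values were seen, and some genes that the rule names are not reported here.

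Replicate numbers pair the arrays, since arrays of a number share a slide. Deviations from the group means correlated at 0.16 to 0.78 in 18 pairs of the same number and at -0.70 to 0.56 in 36 other pairs. The position on the slide follows the group, and the 2 cannot be told apart. The alternatives concerned background, normalization, channel, filter, block, arrays, probes and saturation. Members, lists and tests were chosen with earlier results of these data known.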

Additional observations from a re-analysis of the deposited data

Results flagged for a closer look

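For 8 of the 9 cathepsins the effect of Eviprostat in obstructed rats differed from its effect in sham rats, by the interaction term of the limma fit. The term was -2.90 for Ctsb, -2.12 for Ctsz, -1.78 for Ctss, -1.67 for Ctsc, -1.45 for Ctse, -1.09 for Ctsk, -1.09 for Ctsl and -0.76 for Ctsd on the log2 scale. In Ctsb, Ctsz, Ctss, Ctsc, Ctsk and Ctsl the larger part of the term was the lower level in treated than in untreated obstructed rats, and in Ctse it was the higher level in treated than in untreated sham rats. In Ctsd it was made of 0.25 in sham rats and -0.51 in obstructed rats. The terms of Ctsd and Ctsk were each lost on leaving out any of 9 of 12 arrays, with adjusted p-values up to 0.0982 and 0.113. That of Ctsz was -1.71 with an adjusted p of 0.0647 on slides 2 and 3 alone, an alternative chosen after seeing the data.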

How the results depend on the processing

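Of 1017 tests of a cathepsin in a comparison under an alternative, 919 kept their sign and side of the threshold, 12 uncalled differences turned sign, 64 calls were lost and 22 gained, and no called difference turned sign. Obstruction under vehicle gave 5 to 8 called members over the alternatives, and 7 whichever array was left out. Under median centring the calls were 2 for Eviprostat in obstructed rats, 0 for Eviprostat in sham rats, 0 for obstruction under Eviprostat and 2 for the interaction. The scanner software's ratio gave 3 for Eviprostat in sham rats, 4 for obstruction under Eviprostat and 4 for treated obstruction against untreated sham, where it called 9.48%, 11.9% and 5.33% of all probes. With the replicate number as a block, Eviprostat in sham rats gave 2 and treated obstruction against untreated sham 3, and the block changed no other member's call on its main probe beyond Ctsh under obstruction. Obstruction under Eviprostat gave 1 with an offset of 16, 1 without background subtraction and 4 on slides 2 and 3 alone, and treated obstruction against untreated sham gave 1 from the mean of all probes and 2 on slides 2 and 3 alone. Leaving out 1 array gave 5 to 6 calls for Eviprostat in obstructed rats, 6 to 8 for the interaction and 0 to 2 for obstruction under Eviprostat. The share of all probes called was not counted with the offset of 16, without background subtraction or on slides 2 and 3 alone. Nor was it counted for the mean of all probes or with 1 array left out. The member counts under these settings therefore cannot be set against all probes. The cause of the changes in calls was not tested. Median centring called 3.68% of all probes for Eviprostat in obstructed rats and 4.95% for obstruction under vehicle. Over all probes, 61.6% of the calls under obstruction and vehicle were higher, against 90.2% with median centring, 40.9% with the scanner software's ratio and 52.2% with Cy5 alone. For Eviprostat in obstructed rats these shares were 39.8%, 9.93%, 57.8% and 44.5%. Median centring reduced the calls to 3 hydrolases and 0 V-ATPase genes under obstruction and vehicle. Values within 1 slide had no test.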
